A study of Mus musculus with 13 samples.

Results

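The genes described here are the Fos members Fos, Fosb, Fosl1 and Fosl2, the Jun members Jun, Junb and Jund, and the immediate early genes Egr1, Ier2 and Atf3, chosen by symbol from the count and TPM tables of the series. All 10 were found among the 20270 genes listed, and all 10 were among the 15315 genes tested. RNA of the lower right lung lobe was sequenced from 13 mice in 3 groups. The 4 control mice (numbers 3, 21, 24 and 26) were wildtype C57BL/6J males without bleomycin, for which the study's vehicle was saline. The 5 WT bleomycin mice (4, 2, 5, 4-B2 and 7) were wildtype males of the same strain, 13 weeks old, that received 1 U/kg of bleomycin once by the oropharyngeal route, and their lungs were taken 14 days later. The 4 CB1R KO bleomycin mice (8, 9, 10 and 11) received the same dose for the same time and carried a deletion of Cnr1, the gene of the cannabinoid receptor CB1R, in all tissues (Cnr1-/-) on a C57Bl/6J background; their age and sex are not given in the sources used here. The deletion was present before the injury and in every cell type, and uninjured mice with the deletion were not analysed here. The mice of the study first underwent a terminal lung function test under anaesthesia and ventilation, and the lobe was kept in RNAlater on ice for 4 to 5 hours before freezing.

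AP-1 is a transcription factor made of a Jun protein paired with a Fos protein, an ATF protein or another Jun protein, held together by a leucine zipper, and it binds a short DNA element in the promoters and enhancers of genes of matrix turnover, cytokine signalling and the cell cycle. Fos, Fosb, Jun, Junb, Egr1, Ier2 and Atf3 are induced within minutes to hours of a stimulus from pre-existing factors, without new protein synthesis, and their mRNAs are short-lived. Fosl1 (Fra-1) and Fosl2 (Fra-2) lack the strong activation domain of Fos, are induced later and last longer, and Fra-2 is known from transgenic mice as a driver of lung fibrosis. Bleomycin breaks DNA and injures the alveolar epithelium, which in mice is followed by inflammation and fibrosis of the lung.

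The promoters of 7 of the 10 genes stood in the RefSeq promoter table (build GRCm38.p6; 250 bases before to 50 after the gene's start), and 4 of them are shown, those of Fos, Jun, Junb and Fosl2. In WT bleomycin against control lungs, described below, Fos was not called, Jun fell, and Junb and Fosl2 both rose. The promoters are written 5′ to 3′ on the strand of the gene. Capitals mark the motif letters that were found: the CRE core TGACG and the TATA box TATAAA in Fos and Junb, the EGR element GCGNGGGCG in Fosl2, and the variant AP-1 element TGACATCA in Jun, which was added to the search after the sequences had been seen. The windows lie at chr12:85473640-85473939 on the plus strand for Fos, chr4:95052173-95052472 on the minus strand for Jun, chr8:84978699-84978998 on the minus strand for Junb and chr5:32136222-32136521 on the plus strand for Fosl2.
Fos: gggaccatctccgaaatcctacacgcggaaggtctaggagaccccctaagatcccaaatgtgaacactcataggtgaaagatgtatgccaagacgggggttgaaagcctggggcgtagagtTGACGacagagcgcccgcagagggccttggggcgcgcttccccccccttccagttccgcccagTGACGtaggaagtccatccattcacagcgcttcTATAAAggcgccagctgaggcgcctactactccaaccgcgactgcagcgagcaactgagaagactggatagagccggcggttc
Jun: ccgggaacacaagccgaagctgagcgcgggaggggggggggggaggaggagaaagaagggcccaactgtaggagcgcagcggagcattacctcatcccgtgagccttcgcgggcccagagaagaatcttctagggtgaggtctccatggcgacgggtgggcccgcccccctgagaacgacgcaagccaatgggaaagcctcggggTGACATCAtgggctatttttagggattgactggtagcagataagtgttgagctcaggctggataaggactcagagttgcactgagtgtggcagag
Junb: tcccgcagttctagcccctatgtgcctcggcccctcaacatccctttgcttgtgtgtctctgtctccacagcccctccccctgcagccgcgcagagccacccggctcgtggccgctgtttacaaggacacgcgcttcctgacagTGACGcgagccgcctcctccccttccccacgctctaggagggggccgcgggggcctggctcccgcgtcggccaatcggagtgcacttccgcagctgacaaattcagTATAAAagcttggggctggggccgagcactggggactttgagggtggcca
Fosl2: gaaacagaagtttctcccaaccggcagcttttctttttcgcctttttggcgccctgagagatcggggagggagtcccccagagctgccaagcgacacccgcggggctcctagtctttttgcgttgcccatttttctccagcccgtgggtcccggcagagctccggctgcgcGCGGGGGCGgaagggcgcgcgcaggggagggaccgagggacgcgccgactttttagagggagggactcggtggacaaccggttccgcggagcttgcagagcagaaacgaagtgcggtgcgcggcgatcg

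Fos held the CRE core at positions -129 to -125 and -66 to -62, and its TATA box at -33 to -28, counted from the annotated start with no position 0. The element of Jun lay at -45 to -38, the CRE core of Junb at -106 to -102, and the EGR element of Fosl2 at -79 to -71. The TATA letters of Junb lay at 1 to 6, just inside the annotated transcript. On both strands, the CRE core was found in 4 of the 7 promoters (Fos, Fosb, Junb and Atf3) and in 20.8% of the 32851 promoters of the table. TATAAA was found in 2 of the 7 (Fos and Junb) and in 13.6% of all, the EGR element in 2 of the 7 (Fosb and Fosl2) and in 5.55% of all, and TGACATCA in Jun alone and in 3.62% of all. The consensus AP-1 element TGACTCA or TGAGTCA was in none of the 7 windows and in 5.2% of all, the full CRE TGACGTCA in none and in 1.79% of all, and the CArG box of serum response factor in none and in 1.63% of all. These matches describe letters in a short window only.

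The authors quantified the reads with Kallisto and summed its estimated counts, which need not be whole, over each gene's protein-coding transcripts. In 12 libraries the total lay between 14615904 and 16662580 estimated counts, and CB1R KO 11 had 53463884. CPM are those counts scaled to a common library total with TMM factors, and TPM is the authors' value scaled for transcript length and library total. Levels of different genes are compared only in TPM, and groups are compared with edgeR's quasi-likelihood test on the rounded counts. A gene is called when its Benjamini-Hochberg adjusted p, taken over all 15315 genes tested, is under 0.05. Cnr1 had 27 to 69 estimated counts in control, 50 to 110 in WT bleomycin and 41 to 188.1 in CB1R KO libraries. Reads of Cnr1 were thus counted in the libraries labelled CB1R KO, and since the sources used here do not say which bases were deleted and the counts cover whole transcripts, they do not check the genotype, which is taken from the labels throughout. The labels of Control 26, WT bleomycin 4-B2 and WT bleomycin 7 are capitalised and those of the other 10 libraries are in lower case. Lung marker genes were present in every library, with Sftpc, a type II cell surfactant gene, at 6004 CPM or more. The number 4 stands in the labels of WT bleomycin 4 and WT bleomycin 4-B2, which are counted as separate mice because the study lists for each a terminal lung function measurement of its own. The tissue is a mixture of cells, in which fewer cells of a type and less RNA per cell cannot be told apart.

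Jund, the most constitutive Jun member, had the highest TPM of the 10 in each group, with 331 ± 25.0 (SD, n = 4) in control, 371 ± 44.2 (n = 5) in WT bleomycin and 343 ± 39.3 (n = 4) in CB1R KO bleomycin lungs. In control lungs Jun came next with a mean of 204 TPM, then Junb with 150.3, Ier2 with 104, Egr1 with 85.9 and Fos with 69.5. Of these neighbours, Jun and Junb, Junb and Ier2, Ier2 and Egr1, and Egr1 and Fos overlapped in their ranges over the 4 libraries. Within libraries, Junb stood above Ier2 in 4 of 4. Jun stood above Junb, Ier2 above Egr1, and Egr1 above Fos in 3 of 4, so the order of these pairs did not hold in every library. Fosl2 with 26.8 TPM, Atf3 with 18.1 and Fosb with 9.00 followed, and Fosl1 was lowest with 0.461. In both bleomycin groups Junb stood above Jun: 283 against 136 TPM in WT, where their ranges did not overlap, and 203 against 145 in CB1R KO, where they did. The order of the remaining genes was the same in the 3 groups.

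**Figure D1:**
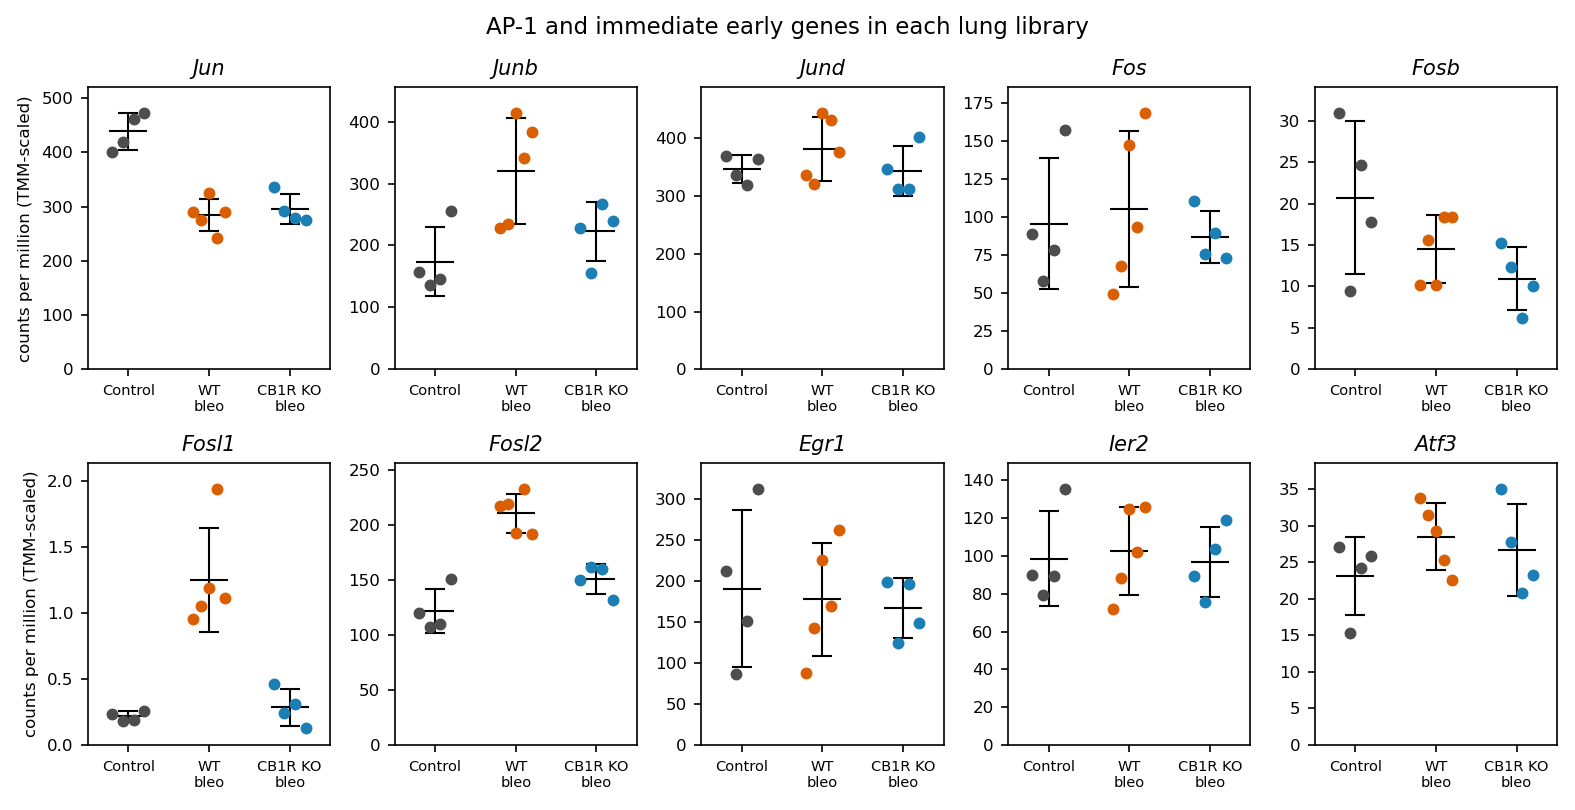
CPM of each gene in each library, 1 panel per gene with its own axis from 0; points are libraries, horizontal bars the group mean and whiskers ± 1 SD (n = 4, 5 and 4). Fosl1 and Fosl2 were higher in all 5 WT bleomycin libraries than in the other 8, Jun was lower in the 9 bleomycin libraries than in the 4 controls, and Fos, Egr1 and Ier2 spread widely within each group.

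The comparison of WT bleomycin with control lungs asks how these genes stand 14 days after injury. Fosl1, Fosl2 and Junb rose, Jun fell, and Fos, Fosb, Jund, Egr1, Ier2 and Atf3 did not pass the test. That is 4 of 10 called, beside 48.9% of all genes tested. Of the 4, 3 were higher (25% of all genes) and 1 was lower (23.9% of all genes), so the share of these genes that was called is near that of any gene in this comparison. Fosl1, Fosl2 and Jun did not overlap between the groups (3 of 10, beside 40.3% of all genes). Fosl1 stands in these counts although it passed the filter on low counts only through the WT bleomycin libraries, so they are not read as a result. The median log2 fold change was 0.14 over the 10 genes and -0.01 over all genes tested.

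Fosl1, the Fra-1 gene, was near the detection limit in control lungs, with 4.34, 3.16, 3.37 and 4.45 estimated counts in Control 3, 21, 24 and 26. In WT bleomycin 4, 2, 5, 4-B2 and 7 it had 14.6, 16.6, 18.6, 27.7 and 17.8 estimated counts. Every WT bleomycin library was above every control, with WT bleomycin 4-B2 highest. In CPM the means were 1.25 ± 0.396 (SD, n = 5) and 0.217 ± 0.0368 (n = 4), a log2 fold change of 2.48 (SE 0.39, edgeR adjusted p = 0.00013). The summed rounded counts were 97 against 14, a ratio of rates of 5.70 with a 95% interval of 3.24 to 10.8 that covers counting error only. Fosl1 passed the filter on low counts only through the WT bleomycin libraries, of which 5 of 5 reached 0.622 CPM and none of the other 8 did, so it could enter the test only by being higher there. In TPM, WT bleomycin and control overlapped, because Control 21 was given 0.949 TPM on its 3.16 counts.

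Fosl2, the Fra-2 gene, stood at 120.2, 107, 109.7 and 151 CPM in Control 3, 21, 24 and 26. It stood at 217, 219, 193, 233 and 191 CPM in WT bleomycin 4, 2, 5, 4-B2 and 7. The groups did not overlap, and the highest control was Control 26. Fosl2 rose 1.72-fold, a log2 fold change of 0.79 (SE 0.10, edgeR adjusted p = 2.27e-05).

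Jun, the gene of c-Jun, stood at 401, 419, 462 and 472 CPM in Control 3, 21, 24 and 26. In WT bleomycin 4, 2, 5, 4-B2 and 7 it stood at 290.4, 276, 325, 241 and 289.6 CPM. All 5 treated libraries were below all 4 controls, and the spread within each group was small beside the difference. Jun fell by 0.62 on the log2 scale (SE 0.09, edgeR adjusted p = 4.12e-05). Of the 10 genes, only Jun was called lower after bleomycin in WT lungs.

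Junb, which pairs with Fos proteins but activates transcription less strongly than c-Jun, stood at 157, 136, 147 and 256 CPM in Control 3, 21, 24 and 26. It stood at 229, 234, 414, 341 and 384 CPM in WT bleomycin 4, 2, 5, 4-B2 and 7. Control 26 lay above the 2 lowest treated libraries, and 3 of 5 treated libraries lay above every control. Junb rose by a log2 fold change of 0.88 (SE 0.22, edgeR adjusted p = 0.00468).

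The other members had adjusted p-values of 0.18 or more. Fos, the founding Fos member, ranged from 58.0 to 157 CPM in control and from 49.4 to 168 CPM in WT bleomycin lungs, and the 95% interval of its log2 fold change, -0.57 to 0.85, allows a change in either direction. Egr1, a zinc finger factor induced by growth factors, ranged from 86.7 to 312 CPM in control and from 87.7 to 262 in WT bleomycin (log2 fold change -0.10, interval -0.81 to 0.60). Ier2, a short-lived nuclear regulator, ranged from 79.3 to 135 and from 72.2 to 125.9 CPM (0.06, interval -0.34 to 0.46). For these 3 genes the ranges of the groups covered each other almost fully. Jund ranged from 319 to 370.4 and from 321 to 444 CPM (0.14, interval -0.09 to 0.36), and Atf3, a stress-induced ATF/CREB factor, from 15.3 to 27.0 and from 22.6 to 33.8 CPM (0.30, interval -0.08 to 0.69). Fosb, whose full-length and short forms are summed in the table, ranged from 9.49 to 30.9 and from 10.1 to 18.3 CPM (-0.52, interval -1.18 to 0.15).

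**Figure D2:**
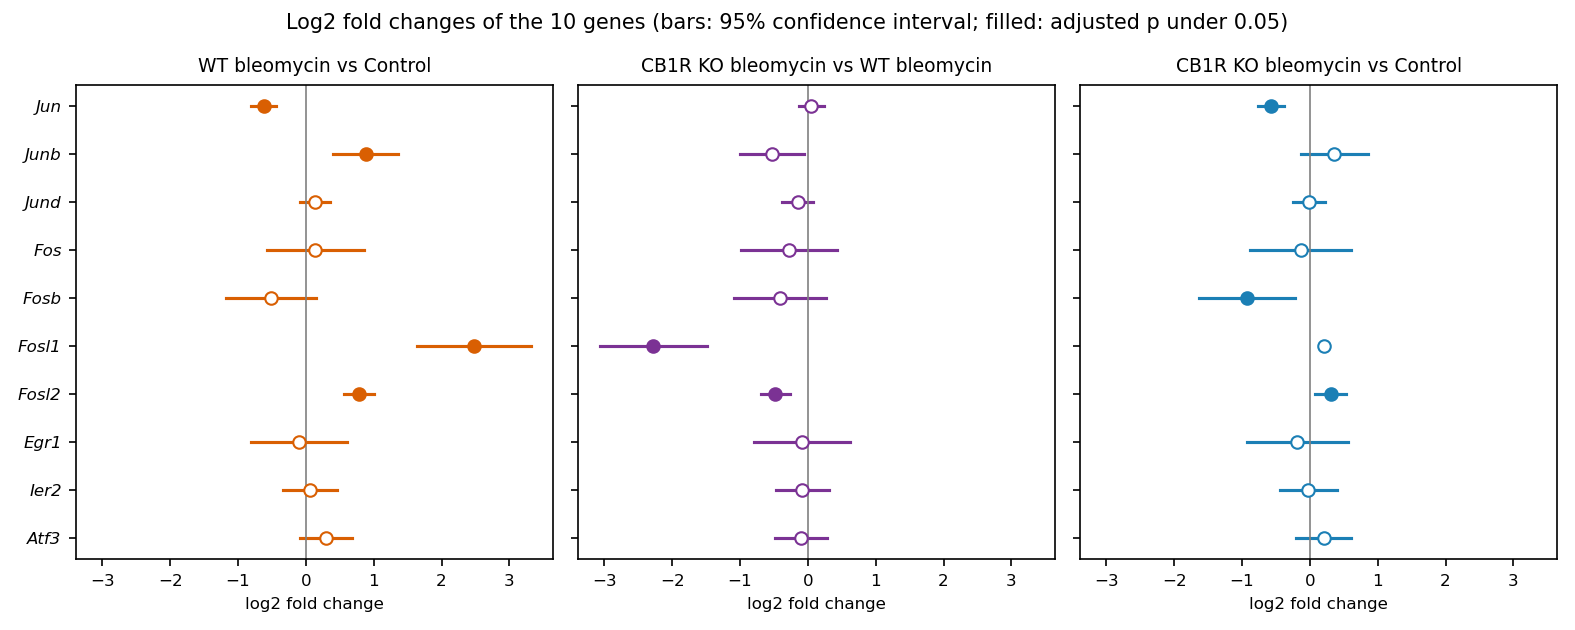
Log2 fold changes of the 10 genes in the 3 comparisons, from edgeR on all 13 libraries; bars are 95% confidence intervals and filled points passed an adjusted p of 0.05. Fosl1 and Fosl2 were called in WT bleomycin against control (2.48 and 0.79) and in CB1R KO against WT bleomycin (-2.28 and -0.48), comparisons that share the WT bleomycin libraries, while Jun stayed near 0 in CB1R KO against WT bleomycin (0.05); no interval is drawn for Fosl1 in the last panel, where its p is set by counting noise.

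The comparison of CB1R KO with WT bleomycin lungs asks whether the deletion of Cnr1 changes these genes in injured lungs. Fosl1 and Fosl2 were lower in CB1R KO lungs, and the other 8 genes did not pass the test. That is 2 of 10 called, beside 0.979% of all genes tested. Fosl1 passed the filter on low counts only because it was higher in the WT bleomycin libraries, so nothing is read from the count. Both called genes were lower (0.62% of all genes, against 0.359% higher), and neither overlapped between the groups, beside 5.6% of all genes. The median log2 fold change was -0.21 over the 10 genes and 0.00 over all genes. Over all genes 150 were called in this comparison, but 1 without CB1R KO 9, 3 without CB1R KO 11 and 653 without CB1R KO 10, so each call named below for this comparison rests on a few libraries.

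Fosl1 had 6.78, 4.41, 5.05 and 7.01 estimated counts in CB1R KO 8, 9, 10 and 11, the last in a library more than 3 times as deep as the others. All 4 were below the 14.6 to 27.7 counts of the WT bleomycin libraries, and in CPM they ran from 0.129 in CB1R KO 11 to 0.458 in CB1R KO 8. The log2 fold change was -2.28 (SE 0.37, edgeR adjusted p = 0.0186). As above, Fosl1 passed the filter of this test only through the WT bleomycin libraries. Without a count filter its log2 fold change was -2.24 (edgeR adjusted p = 0.0216). The summed rounded counts were 23 against 97, a ratio of rates of 0.184 with a counting interval of 0.112 to 0.293. CB1R KO 11, the deepest library, weighs most in that ratio, and without it the log2 fold change was -1.86. The call was lost without CB1R KO 9 (adjusted p = 0.0756), without CB1R KO 11 (0.0705) and with the lower-case libraries alone (0.119), where the direction stayed the same, and the size of the change in TPM depended on the pseudocount, at -0.83 with 1 and -1.82 with 0.1 (limma).

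Fosl2 stood at 150.2, 162, 159.9 and 132 CPM in CB1R KO 8, 9, 10 and 11, all below the lowest WT bleomycin library at 191 CPM. Its log2 fold change was -0.48 (SE 0.10, edgeR adjusted p = 0.0391), the 76th of the 95 genes called lower by size. Fosl2 was called in 11 of 24 alternatives, and its log2 fold change lay between -0.52 and -0.41 in all 24. The call was lost without Control 24, without any 1 of the 5 WT bleomycin libraries and without CB1R KO 8, 9 or 11 (adjusted p from 0.0506 to 0.128), and in limma on TPM or with the label style as a term or a limit (0.0649 to 0.106).

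Junb stood at 229, 156, 267 and 239 CPM in CB1R KO 8, 9, 10 and 11. Of the 4, CB1R KO 9 was below every WT bleomycin library and the others lay within their range. Its log2 fold change of -0.52 (SE 0.22) had an unadjusted edgeR p of 0.0321 and an adjusted p of 0.243, so the difference is not beyond the correction. Jun stood at 335, 291, 279 and 276 CPM in CB1R KO 8, 9, 10 and 11, inside or just above the range of the WT bleomycin libraries, and the 95% interval of its log2 fold change ran from -0.13 to 0.24.

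For the 6 other genes the intervals were wider or the levels close. Fos ranged from 73.1 to 110.3 CPM in CB1R KO lungs (log2 fold change -0.28, interval -0.99 to 0.43), Egr1 from 125 to 199 CPM (-0.09, interval -0.79 to 0.62) and Ier2 from 75.7 to 119 CPM (-0.08, interval -0.48 to 0.31). All 3 ranges lay inside those of the WT bleomycin libraries. Fosb ranged from 6.15 to 15.2 CPM (-0.41, interval -1.10 to 0.27), Jund from 312 to 403 (-0.15, interval -0.38 to 0.07) and Atf3 from 20.8 to 35.1 (-0.10, interval -0.48 to 0.28). These intervals do not show that the genotypes were alike.

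The comparison of CB1R KO bleomycin with control lungs uses the same control libraries as the comparison with WT bleomycin, so the values of the comparisons are set side by side only. Fosl2 was higher and Jun and Fosb were lower, 3 of 10 called beside 35.4% of all genes tested (19% of all genes were higher and 16.3% lower). Only Jun did not overlap between the groups (1 of 10, beside 33.5% of all genes). Its log2 fold change was -0.57 (SE 0.09, edgeR adjusted p = 0.000308), beside -0.62 in WT bleomycin. Fosl2 had a log2 fold change of 0.30 (SE 0.11, edgeR adjusted p = 0.0371), beside 0.79 in WT bleomycin. Fosb had -0.93 (SE 0.33, edgeR adjusted p = 0.0414), beside -0.52 in WT bleomycin, with Control 3 and 24 at 30.9 and 24.7 CPM above every bleomycin library and Control 21 at 9.49 below 8 of the 9. Fosl1 was not called (edgeR adjusted p = 0.941). Its summed counts were 23 against 14, a ratio of rates of 1.05 with a counting interval of 0.518 to 2.21. That interval covers counting error only and allows a change in either direction. CB1R KO 11, the deepest library and the lowest in Fosl1 CPM, weighs most in that ratio. The log2 fold change of Fosl1 was 0.21 with CB1R KO 11 and 0.62 without it. Junb had 0.36 (SE 0.23, edgeR adjusted p = 0.247). The call of Fosl2 was lost without Control 3, 21 or 24 or CB1R KO 8, 9 or 10 (adjusted p from 0.0572 to 0.107), and with edgeR on the 2 groups (0.0619). That of Fosb was lost without Control 3, 24 or 26, WT bleomycin 2, or CB1R KO 9, 10 or 11 (0.0511 to 0.140), and with edgeR on the 2 groups, the label style as a term, lower-case labels alone and limma on TPM (0.0595 to 0.0801), so that Fosb was called in 12 of 24 alternatives. Without Control 26, Junb was called (0.0484).

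Since AP-1 is a dimer, the make-up of each family was described as the share of each gene in the summed TPM of its family. The Jun family summed to 685 ± 61.0 TPM in control, 790.1 ± 111 in WT bleomycin and 692 ± 67.4 in CB1R KO bleomycin lungs (SD, n = 4, 5 and 4). Jun made up 29.9% ± 2.69 of it in control, 17.5% ± 2.95 in WT bleomycin and 21.1% ± 2.69 in CB1R KO bleomycin lungs. Junb made up 21.7% ± 4.33, 35.4% ± 4.24 and 29.2% ± 4.65, and Jund 48.4% ± 3.64, 47.1% ± 2.76 and 49.7% ± 3.71. The Jun share lay between 27.7% and 33.3% in control and between 13.8% and 20.8% in WT bleomycin libraries, so the groups did not overlap. The same held for the Junb share, from 18.7% to 28.1% and from 30.3% to 40.3%. In both, the two-sided exact permutation test gave p = 0.0159, the smallest that 4 against 5 libraries allow, and 0.127 after Benjamini-Hochberg adjustment over the 24 share comparisons made, so none passed the correction. At these group sizes even a share that parts the groups fully cannot pass that correction unless several others do too, so it cannot decide here. The Jun share differed between CB1R KO and WT bleomycin by 3.67 percentage points (exact p = 0.111) and the Junb share by -6.22 (exact p = 0.0794), with overlap in both.

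**Figure D3:**
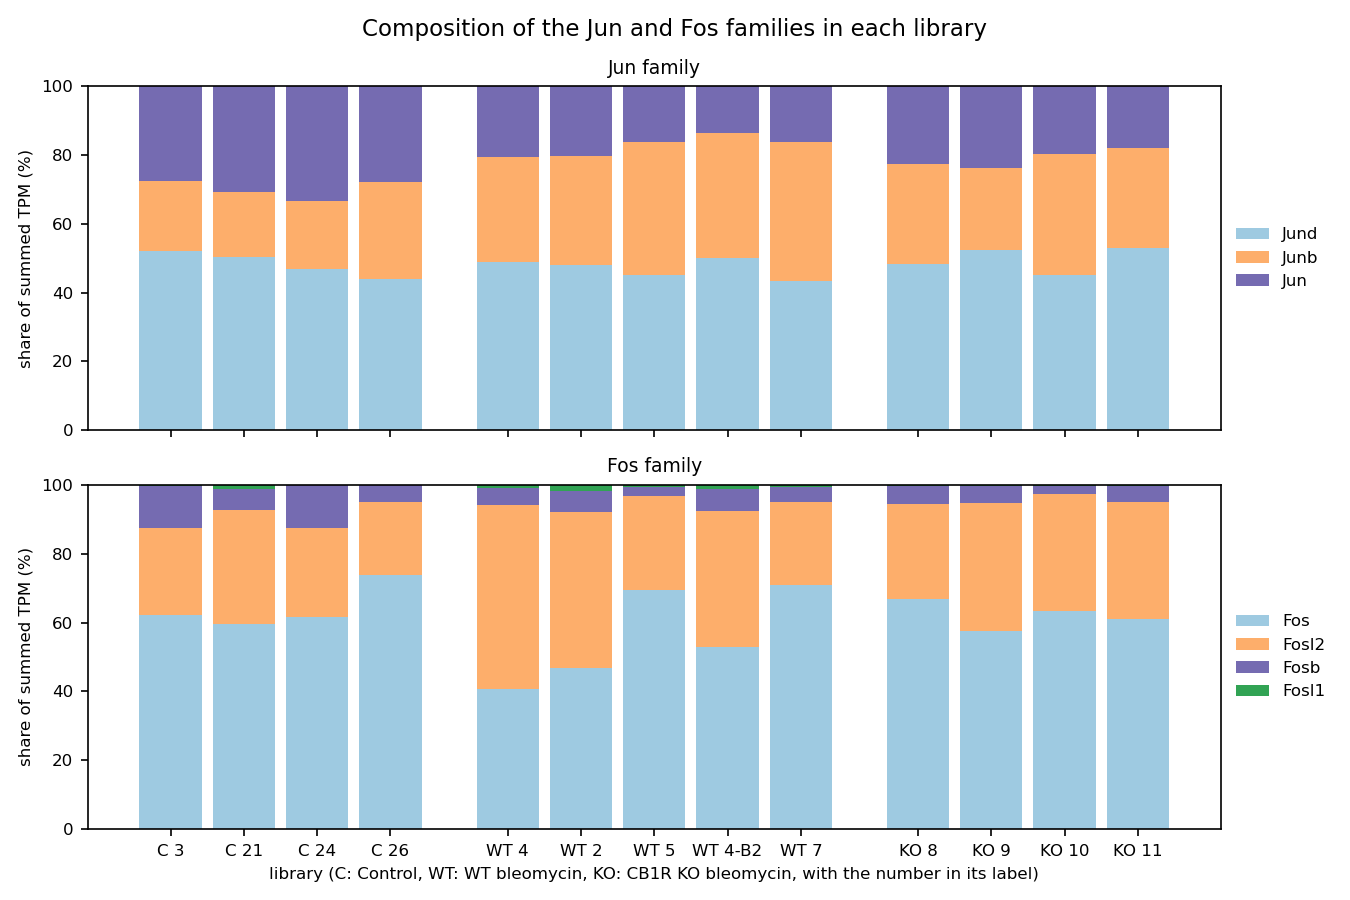
Share of each gene in the summed TPM of the Jun family (top) and the Fos family (bottom), 1 stacked bar per library, in percent. Jun took 27.7% to 33.3% of the Jun family in control and 13.8% to 20.8% in WT bleomycin libraries, while Jund stayed between 43.4% and 53.1% in all 13.

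The Fos family summed to 106 ± 34.0 TPM in control, 133 ± 32.8 in WT bleomycin and 107 ± 16.4 in CB1R KO bleomycin lungs. Fos made up most of it, with 64.2% ± 6.40, 56.1% ± 13.5 and 62.2% ± 3.93. Fosl2 followed with 26.5% ± 4.95, 38.1% ± 12.3 and 33.1% ± 4.08, and it took the larger share in WT bleomycin 4, where the Fos share was 40.5% and the Fosl2 share 53.6%. Fosb made up 8.79% ± 4.01, 4.80% ± 1.49 and 4.43% ± 1.39. Fosl1 never exceeded 1.82% of the family in any library. Its share was 1.05% ± 0.497 in WT and 0.268% ± 0.0321 in CB1R KO bleomycin lungs with no overlap (exact p = 0.0159, adjusted 0.127), a difference that rests on the few counts given above. The ratio of the Fos to the Jun family sum was 0.152 ± 0.0351 in control, 0.167 ± 0.0267 in WT bleomycin and 0.156 ± 0.0238 in CB1R KO bleomycin lungs, with exact p-values of 0.476 or more.

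The 10 genes also differed in their spread within a group. The SD of log2 CPM around the group mean, pooled over the groups, was 0.607 for Egr1, 0.592 for Fos and 0.573 for Fosb, above that of 94.9%, 94.5% and 94.0% of all genes tested. It was 0.386 for Junb, 0.383 for Fosl1, 0.323 for Ier2 and 0.312 for Atf3. It was 0.172 for Jund, 0.163 for Fosl2 and 0.136 for Jun, at or below the median of all genes, 0.172. Among the 500 genes nearest in level, Fos and Egr1 had the largest spread (percentile 100), whereas Fosl1, with 3 to 28 counts a library, stood at percentile 7.2 on log2 CPM and 67.2 on log2(TPM + 1). The genes with the widest spread were Fos, Egr1 and Fosb, of which none was called after bleomycin in WT lungs. Of the genes called there, Jun and Fosl2 were among the least variable of the 10, whereas Junb and Fosl1 came next after Fosb. Jund, with a spread near that of Fosl2, was not called.

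Deviations of the libraries from their group means were largely shared by 4 genes. Fos and Egr1 deviated together (Pearson r = 0.93, Spearman rho = 0.93), as did Junb and Ier2 (r = 0.93, rho = 0.97), over 13 libraries, and without the 2 libraries that deviated most r was 0.90 in both. Among Fos, Egr1, Junb and Ier2 the other 4 pairs had r from 0.82 to 0.85. Control 26 was high in all 4 (log2 deviations of 0.82, 0.86, 0.60 and 0.49 in that order), and WT bleomycin 4 was low in all 4 (-0.94, -0.92, -0.44 and -0.48). WT bleomycin 5 and 7 and CB1R KO 10 were also above their group mean in all 4, and Control 21 and 24, WT bleomycin 2 and CB1R KO 9 below. Over all 45 pairs of the 10 genes the median r was 0.28, with 37 pairs above 0. With the other 9 genes, the median r was 0.43 for Fos, 0.42 for Egr1 and 0.32 for Junb and Fosl1. It was 0.18 for Jun, Ier2 and Atf3, 0.16 for Fosl2 and Jund, and 0.14 for Fosb. The value of Fosl1, a gene of few counts, depended on the scale. On log2(TPM + 1) its r was below 0 with each of the other 9 genes, from -0.40 with Jun to -0.06 with Fosl2. The points of each correlation share their library, its depth and its scaling factor, and Control 26 and WT bleomycin 7, both high, are 2 of the 3 libraries with capitalised labels. The part of handling, dissection or RNA quality in these shared deviations was not tested.

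**Figure D4:**
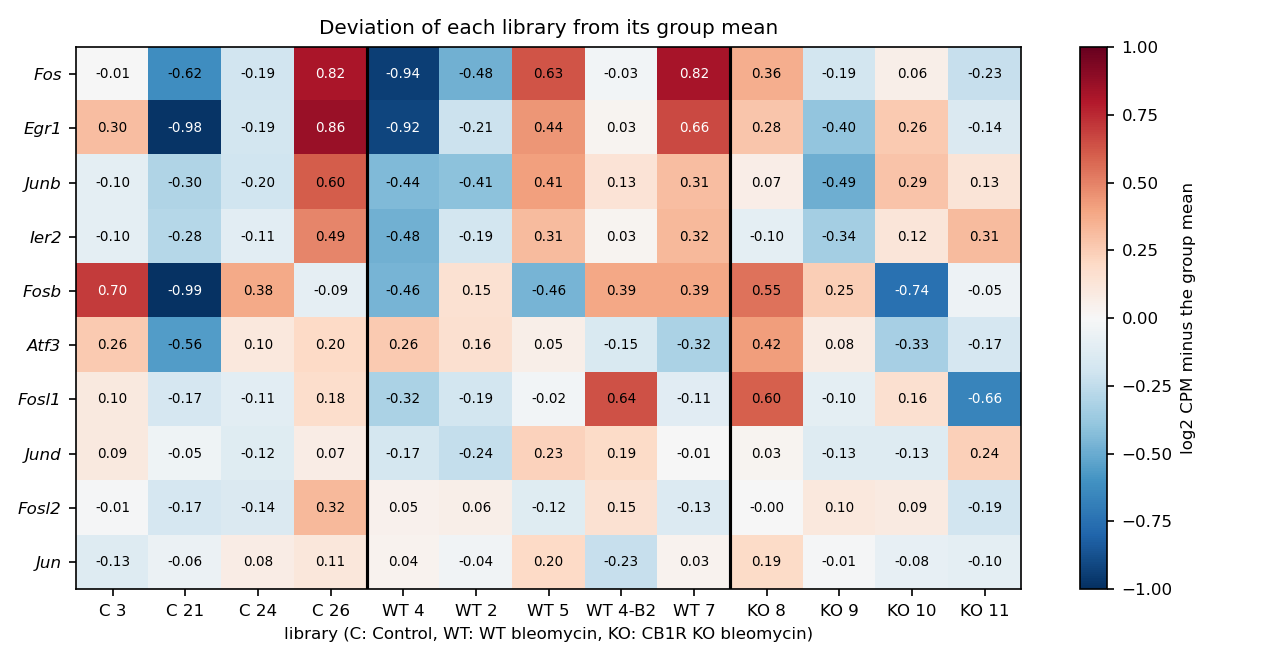
Log2 CPM of each gene in each library minus the mean of its group; red is above and blue below the group mean, black lines part the groups, and the number in each cell is the deviation. Fos, Egr1, Junb and Ier2 were above their group mean together in Control 26, WT bleomycin 5 and 7 and CB1R KO 10. They were below it together in Control 21 and 24, WT bleomycin 4 and 2 and CB1R KO 9. Jun, Fosl2 and Jund deviated by at most 0.32.

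Outside the 10 genes, the 5 genes whose deviations were most like those of Fos, among 12251 genes with a mean of at least 5 CPM, were Zfp668 (r = 0.87), Osm, Tbx4, Kcne4 and Tango2 (r = 0.84 to 0.85). For Fosl1 they were Midn (r = 0.90), Aimp2, Kcnrg, Clic6 and Dnali1 (r = 0.87 to 0.88). For the mean of the 10 standardised genes they were Smim3 (r = 0.88), Osm, Slc2a8, Srsf11 and Phc1 (r = 0.82 to 0.86). These are the highest of 12251 values over 13 libraries. Without the 2 libraries that deviated most, r was 0.74 to 0.85 for the genes like Fos and 0.67 to 0.77 for those like Fosl1. It was 0.58 to 0.85 for those like the mean. The deviations of Fosl1 rest on the few counts given above.

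The other basic leucine zipper factors that pair or compete with AP-1 were mixed after bleomycin in WT lungs, with 7 higher and 5 lower of 21 tested, near the 25% higher and 23.9% lower of all genes, and a median log2 fold change of -0.06. Batf3, a factor of dendritic cells, rose by 2.00 (edgeR adjusted p = 1.97e-05) and Crem, of the cyclic AMP pathway, by 0.57 (0.00037). Atf5 fell by 0.57 (0.000158), Bach2 by 0.71 (0.000884) and Creb1 by 0.29 (0.00429). None of the 21 was called between the genotypes (list median -0.05), beside 0.979% of all genes. Of 26 factors and kinases upstream of AP-1, 4 were higher and 7 lower after bleomycin, beside 25% and 23.9% of all genes. None was called between the genotypes, beside 0.979% of all genes. Map3k5 (ASK1), a stress kinase, fell by 0.62 (edgeR adjusted p = 3.07e-06), Rps6ka1 by 0.44 (6.89e-06) and Map2k6 by 1.04 (0.00288), while Rps6ka3 rose by 0.45 (2.61e-05), Mapkapk2 by 0.27 (0.00117) and Map2k4 by 0.22 (0.0028).

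Of 34 other immediate early genes tested, 12 were higher and 8 lower after bleomycin in WT lungs, not far from the 25% and 23.9% of all genes, with a median log2 fold change of 0.00. Socs3, an inhibitor of cytokine signalling, rose by 2.63 (edgeR adjusted p = 2.48e-07), Egr2 by 1.53 (3.37e-06) and Ier5l by 1.41 (1.26e-05). Klf2, an endothelial flow-responsive factor, fell by 0.66 (0.0019), Sik1 by 0.75 (0.00458) and Nfkbia by 0.75 (0.00526). Between CB1R KO and WT bleomycin lungs Socs3 alone of the 34 was called, beside 0.979% of all genes. Its log2 fold change was -1.04 (edgeR adjusted p = 0.0231). Of 13 heat shock and tissue handling genes, 3 were higher and 1 lower after bleomycin, beside 25% and 23.9% of all genes. Hsp90aa1 stood at a log2 fold change of 0.39 (edgeR adjusted p = 0.00168), Hspe1 at 0.33 (0.0128), Hsp90ab1 at 0.23 (0.0278) and Dnajb4 at -0.41 (0.00662). None of these 13 was called between the genotypes, beside 0.979% of all genes.

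Of 18 textbook AP-1 target genes, 16 rose and 2 fell after bleomycin in WT lungs, beside 25% higher and 23.9% lower of all genes, with a median log2 fold change of 1.59 beside -0.01 over all genes. Timp1, a protease inhibitor, rose by 4.58 (edgeR adjusted p = 2.76e-07) and Ccnd1, cyclin D1, by 0.88 (4.84e-07). Vegfa fell by 0.54 (2.21e-05) and Mmp9 by 1.82 (0.000696). In CB1R KO against WT bleomycin lungs 4 of the 18 were lower and none higher, beside 0.62% lower and 0.359% higher of all genes, with a median of -0.56. Among them, Mmp3, stromelysin, had a log2 fold change of -1.06 (edgeR adjusted p = 0.0177), Timp1 -1.46 (0.0314) and Ccl2, a monocyte chemokine, -1.29 (0.0478). Against control, 12 of the 18 were higher and 2 lower in CB1R KO bleomycin lungs, beside 19% and 16.3% of all genes. The list was drawn up with earlier results of these data known, so its counts are not a test of AP-1 activity. These genes have other regulators too, and no factor binding was measured.

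RNA levels of cell type markers differed between the groups too. Of all genes tested, 25% were higher and 23.9% lower in WT bleomycin against control. Between the genotypes 0.359% were higher and 0.62% lower in CB1R KO. In WT bleomycin against control lungs 4 of 7 fibroblast markers were higher, and their summed level was 1633 to 2050.5 CPM in control, 6393 to 9454 in WT bleomycin and 4570.0 to 7368 in CB1R KO bleomycin libraries. Of 7 macrophage markers 4 were higher and 1 lower (5130.0 to 5978, 5460.3 to 7853 and 7989 to 9075 CPM). Markers of other cells were lower: 5 of 6 for type II cells (18635 to 22100.0, 11602 to 13253 and 13482 to 21275 CPM), 5 of 6 for endothelial cells, with 1 higher (3697 to 4589, 3006 to 3313 and 3304 to 3436 CPM), and 4 of 5 tested for neutrophils (128 to 589, 76.0 to 135 and 92.6 to 187 CPM). The 6 cardiac and striated muscle markers were also lower (673 to 1712, 107 to 451 and 458 to 815 CPM). So were 5 of 5 red blood cell, 3 of 6 T and NK cell and 2 of 4 adipocyte markers tested. For B and plasma cells 3 of 5 were lower and 1 higher, and for smooth muscle 3 of 6 were higher and 1 lower. In CB1R KO against WT bleomycin lungs 3 of 6 type II and 2 of 6 T and NK cell markers were higher. The 6 T and NK cell markers summed to 36.2 to 53.3 CPM in WT and 57.4 to 62.2 in CB1R KO libraries. Of 6 smooth muscle markers 2 were lower, and the 6 summed to 776 to 1148 CPM in WT and 641 to 824 in CB1R KO libraries. No fibroblast, macrophage, endothelial, neutrophil, cardiac, B and plasma cell, adipocyte or red blood cell marker was called. None of the markers in these lists was at 0 throughout a group. Their part in the changes of Fosl1, Fosl2, Junb and Jun was not tested.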

How the data were processed

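Oligo(dT)-selected libraries of lung lobe RNA were sequenced as 150 bp read pairs on a HiSeq instrument. Per the submitters' processing notes and methods, the authors ran Kallisto on mouse transcripts (GRCm39, Ensembl 105), kept protein-coding transcripts and deposited 2 tables with 1 row per gene symbol: estimated counts, not normalized, and TPM. Of the count values, 64.8% were not whole (tolerance 0.001), and 301 of 20270 genes were at 0 in all libraries. In the TPM table, 1 column matched no sample and was not used.

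Here the estimated counts were rounded and filtered (filterByExpr), library sizes were scaled by TMM, and groups were tested in edgeR (version 4.0.16, R 4.3.3) by its quasi-likelihood method, with the 13 libraries in 3 groups, no covariates and Benjamini-Hochberg adjustment. Log2 CPM used a prior count of 2. Intervals cover 95%. The shares went through exact permutation tests, two-sided, in scipy 1.17.1. Tables and plots used pandas 2.3.3, numpy 2.4.6 and matplotlib 3.10.9 (Python 3.11.15). The authors' own method was DESeq2, which is an alternative here (1.42.0), as is limma 3.58.1 on log2(TPM + 1) and log2(TPM + 0.1). Other alternatives were RLE and upper-quartile scaling, no filter, at least 10 counts in every library, 2 groups, label style as a term, lower-case labels only, CB1R KO 11 thinned, and each library left out in turn.

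On simulated data for WT bleomycin against control with 15315 genes, 82 of 100 genes changed by a log2 fold of 1 and 98 of 100 changed by 2 were recovered, with 12 calls among unchanged genes. For CB1R KO against WT bleomycin, 79 and 98 of 100 were recovered, with 9 such calls. No other genes were changed in the simulated data, whereas 7492 of the 15315 genes were called in the real WT bleomycin against control comparison. The shares recovered are thus not those of the real comparisons.

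The 10 genes and all lists were chosen with earlier results of these data known. Named beside the 10 were Cnr1, the 3 genes of each functional list with the lowest p in each direction in WT bleomycin against control and any called between the genotypes, and the 5 genes most like Fos, Fosl1 and the mean. Of the genes this rule selects, 2 are not reported here. Promoters are RefSeq's, matched by symbol, and the tables themselves hold no coordinates. Promoters of Fosl1, Egr1 and Ier2 were not used here. P-values measure the spread between mice sampled once each.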

Additional observations from a re-analysis of the deposited data

Results flagged for a closer look

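The outermost library of each group was compared with its neighbours by Dixon's ratio, for 54 groups of values. These were the log2 CPM of each gene and each family share or ratio. Chance alone is expected to mark about 1 in 20 groups. There were 2 such values. The Fosb share of the Fos family was 2.37% in CB1R KO replicate 10, against 4.86% to 5.36% in the other 3 libraries of that group. The Junb share of the Jun family was 28.1% in Control replicate 26, against 18.7% to 20.2% in the other 3 controls, and that library was also the control with the highest Fos, Egr1 and Ier2.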

How the results depend on the processing

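The calls of Fosl2, Jun and Junb in WT bleomycin against control held in all 24 alternatives and that of Fosl1 in all 23 in which it was tested (it has under 10 counts in most libraries), as did that of Jun in CB1R KO bleomycin against control. On the log2(TPM + 1) scale the Fosl1 change in WT bleomycin was 0.67. The comparison of CB1R KO with WT bleomycin moved most: in place of 150 genes, DESeq2 called 640, limma with 0.1 added 93, edgeR on the 2 groups 88, the label style as a term 41 and the lower-case labels alone 6, and leaving out each library gave 1 (without CB1R KO 9) to 653 (without CB1R KO 10). Of the 10 genes, 1 was called in place of 2 with at least 10 counts in every library, in limma with 1 or 0.1 added and with the label style as a term, 0 with lower-case labels alone, and 0 to 2 without each library. In the edgeR test with lower-case labels alone the adjusted p was 0.119 for Fosl1 and 0.0954 for Fosl2. In CB1R KO bleomycin against control, 1 of the 10 was called in place of 3 with 2 groups and 1 to 3 without each library. On the log2(TPM + 1) scale the median SD of the 10 genes was 0.306 in place of 0.353 and the median pairwise r 0.063 in place of 0.28. The causes were not tested.

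Changes of direction concerned genes and shares that passed no test in the comparison named. For CB1R KO against WT bleomycin, Egr1 was 0.035 and 0.036 in limma with 1 and 0.1 added, and with the label style as a term Egr1 was 0.22, Fos 0.054 and Ier2 0.090. With lower-case labels alone Egr1 was 0.14, Ier2 0.029 and Jun -0.011, and against control Egr1 was 0.022 in WT bleomycin. For CB1R KO bleomycin against control, limma with 1 and 0.1 added gave 0.019 and 0.020 for Fos, -0.15 and -0.34 for Fosl1, 0.0502 and 0.0503 for Jund, 0.016 and 0.018 for Egr1 and 0.057 and 0.0575 for Ier2. The label style as a term gave 0.13 for Fos, 0.015 for Jund, 0.067 for Egr1 and 0.11 for Ier2, and lower-case labels alone 0.21, 0.012, 0.16 and 0.17. With CPM in place of TPM the share of Fosb (CB1R KO minus WT bleomycin) was 0.0140 points, of Fosl1 (CB1R KO minus control) 0.0182 and of Jund (WT bleomycin minus control) 2.44.

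Without each library in turn, WT bleomycin against control ranged from -0.088 to 0.48 for Fos, -0.34 to 0.24 for Egr1 and -0.032 to 0.24 for Ier2. CB1R KO against WT bleomycin ranged from -0.013 to 0.11 for Jun, -0.26 to 0.099 for Egr1, -0.19 to 0.021 for Ier2 and -0.25 to 0.0016 for Atf3. CB1R KO bleomycin against control ranged from -0.31 to 0.21 for Fos, -0.11 to 0.62 for Fosl1, -0.094 to 0.033 for Jund, -0.43 to 0.15 for Egr1 and -0.13 to 0.17 for Ier2. The shares moved in points from -3.58 to 1.15 (Fos), -0.391 to 0.0027 (Fosl1) and -0.196 to 2.80 (Jund) for CB1R KO bleomycin minus control, and from -0.923 to 0.318 (Fosb) for CB1R KO minus WT bleomycin, and the Fos to Jun ratio from -0.0095 to 0.0188 for CB1R KO bleomycin minus control. The depth limits Fosl1 most, with 3 to 28 counts a library. No paired analysis was possible because the groups share no replicate numbers.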
